A study of Mus musculus with 9 samples.

Results

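The transcripts described here encode receptor chains for 3 myeloid growth factors, GM-CSF, interleukin 3 and M-CSF, together with the Dok adaptors and the lipid phosphatase SHIP1 that limit signals from such receptors. A list of 9 genes was drawn up (Csf2ra, Csf2rb, Csf2rb2, Il3ra, Csf1r, Dok1, Dok2, Dok3 and Inpp5d), and rows were taken where the deposited gene name equals one of them. The genes were chosen from differences in FPKM (fragments scaled to gene length and library depth) between the same diabetic and control libraries, so their group differences are given as a description, with no test. Of the 9 genes, 7 had a row under their own name. A further row, with an identifier in place of a name, is matched to Csf2rb by the UniProt entry in its description, and no row was used for Csf2rb2. The 8 measured genes, of 41096 genes in the table, all passed the filter on low values (FPKM of at least 1 in at least 4 libraries), which 11193 genes passed.

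Cells rinsed from the peritoneal cavity of mice were profiled by messenger RNA sequencing, 4 libraries from diabetic and 5 from control mice. Diabetic mice were APOE-/- and were made diabetic with streptozotocin, which kills insulin-producing cells (40 mg/kg daily for 5 days, begun at 8 weeks of age). Control mice were APOE-/- too and received citrate buffer. Both groups ate a western diet for 8 weeks and were given 1.5 mL of 3% thioglycollate, which provokes a sterile inflammation of the cavity, 3 days before the cells were taken. The labels call the cells peritoneal macrophages but name no sorting or adherence step, and they do not say whether a library came from 1 mouse or from a pool, so errors and p-values measure the spread between these libraries, which may be technical.

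GM-CSF and interleukin 3 each bind a private alpha chain, encoded by Csf2ra and Il3ra, which pairs with the common beta chain encoded by Csf2rb. Mice have a second beta chain gene, Csf2rb2, whose product serves interleukin 3. The beta chain carries the kinase JAK2 and signals through STAT5, Ras and phosphoinositide 3-kinase. M-CSF binds CSF1R, a receptor tyrosine kinase on which most tissue macrophages depend. Dok proteins are adaptors without enzyme activity. They recruit partners such as SHIP1 and, for Dok1 and Dok2, RasGAP, and so restrain Ras and phosphoinositide 3-kinase signals. Mice without Dok1, Dok2 and Dok3 develop a histiocytic disease of macrophages, which is the reason for treating the adaptors beside these receptors.

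Libraries held 14469116 to 15115391 reads in genes in the diabetic group and 14156421 to 16169060 in the control group, and the 8 transcripts rested on 561 to 25480 reads each. Apoe, the disrupted gene, averaged 232 ± 73.9 FPKM in diabetic (SD, n = 4) and 278 ± 57.6 FPKM in control libraries (SD, n = 5), which checks neither genotype nor labels because RNA can come from a disrupted locus. Of 10 macrophage markers 9 had a row. Cd68 averaged 1052 ± 278 FPKM in diabetic and 1109 ± 212 FPKM in control libraries (SD), and Adgre1 246 ± 52.0 and 284 ± 23.0 FPKM, while the row of the integrin gene Itgam did not exceed 0.246 FPKM in any library. Mrc1, the mannose receptor gene, was the only one of 8 tested macrophage markers to pass, with 24.5 ± 11.1 FPKM in diabetic and 52.6 ± 12.4 FPKM in control libraries (SD; log2 fold change -1.13, SE 0.25, limma adjusted p = 0.033). Lymphocyte transcripts were present as well. The summed FPKM of 12 T cell markers was 146 to 577 in diabetic and 47.3 to 80.0 in control libraries, and all 12 passed the test as higher in the diabetic group. Diabetic 3 had the lowest T cell sum of its group and the highest macrophage sum (2788 FPKM, against 1621 to 2068 FPKM in the other diabetic libraries and 2119 to 2798 FPKM in control libraries).

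Start regions from RefSeq's promoter table for GRCm38.p6 are printed here for 4 of the 8 measured genes. Each holds 250 bases before and 50 after the annotated start, 5′ to 3′ on the gene's own strand. No entry was found for Csf2rb, Dok1 and Dok2, and the start region of Csf1r was left out. Both alpha chain genes had lower means in diabetic libraries and Inpp5d a higher mean, but the groups overlapped for Il3ra, Dok3 and Inpp5d. A link between these start regions and the levels was not tested. Capitals mark GAGGAA or its reverse complement, a form of the site bound by PU.1 and related ETS factors that control many myeloid receptor genes. The positions are chr19:61228369-61228668 on the minus strand for Csf2ra, chr14:14346245-14346544 on the plus strand for Il3ra, chr13:55528489-55528788 on the minus strand for Dok3 and chr1:87620062-87620361 on the plus strand for Inpp5d.
Csf2ra: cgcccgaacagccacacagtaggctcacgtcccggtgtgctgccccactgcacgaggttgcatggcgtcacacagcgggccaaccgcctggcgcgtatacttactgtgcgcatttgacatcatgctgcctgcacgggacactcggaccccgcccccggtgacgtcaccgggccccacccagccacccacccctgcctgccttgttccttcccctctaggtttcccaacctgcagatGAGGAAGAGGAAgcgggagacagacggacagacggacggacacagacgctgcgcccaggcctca
Il3ra: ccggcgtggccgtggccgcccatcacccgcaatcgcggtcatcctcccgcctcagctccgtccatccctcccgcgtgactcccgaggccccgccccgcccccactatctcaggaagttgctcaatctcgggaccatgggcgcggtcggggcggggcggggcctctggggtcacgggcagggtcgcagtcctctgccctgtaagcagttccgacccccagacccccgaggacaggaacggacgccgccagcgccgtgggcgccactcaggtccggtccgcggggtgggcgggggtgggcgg
Dok3: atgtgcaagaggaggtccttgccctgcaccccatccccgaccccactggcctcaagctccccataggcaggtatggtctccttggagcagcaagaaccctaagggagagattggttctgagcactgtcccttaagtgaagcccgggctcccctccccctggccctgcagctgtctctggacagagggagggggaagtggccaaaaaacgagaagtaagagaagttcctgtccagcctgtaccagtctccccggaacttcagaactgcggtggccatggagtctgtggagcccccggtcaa
Inpp5d: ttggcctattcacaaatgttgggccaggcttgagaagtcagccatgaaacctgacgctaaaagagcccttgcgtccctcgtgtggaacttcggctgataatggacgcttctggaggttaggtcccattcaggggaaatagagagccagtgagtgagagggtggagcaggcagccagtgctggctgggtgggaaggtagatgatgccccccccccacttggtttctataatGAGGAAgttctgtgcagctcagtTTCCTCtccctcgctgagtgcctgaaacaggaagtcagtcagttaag
The Csf2ra window held 2 matches side by side, close to the start, and the Inpp5d window held 2, 1 on each strand. Il3ra and Dok3 held none of this form, and other forms of the site were not searched. On either strand this motif is found in 28.3% of the 32851 promoters of the table. Of 3 other motifs searched on both strands, the C/EBP pattern TTGCNNAA (10.8% of promoters) matched once in the Il3ra window, and AP-1 TGANTCA (7.81%) and RUNX TGTGGT (16.8%) matched in none of the 4 windows. None of these motifs overlaps another in its matches here, and a match is a description of the letters only.

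Among the receptor chains, the GM-CSF receptor alpha chain showed the widest gap between the groups. Csf2ra (identifier MGP_C57BL6NJ_G0025716, chromosome 19, 63309633 to 63314153 in the table's own coordinates, whose build no source used here names) stood at 117, 76.3, 137 and 96.0 FPKM in diabetic 1 to 4, against 155, 204, 205, 174 and 184 FPKM in control 1 to 5. All 4 diabetic libraries lay below every control library, with diabetic 3 the nearest to them. The means were 107 ± 26.1 FPKM in diabetic (SD, n = 4) and 184 ± 21.3 FPKM in control libraries (SD, n = 5), a ratio of 0.578, and the fitted log2 fold change (diabetic minus control, on the log2(FPKM + 1) scale) was -0.81 with an SE of 0.17. In bulk RNA, fewer cells of a type and less RNA per cell cannot be told apart, here and in all values that follow. Eosinophils carry receptors for GM-CSF and interleukin 3. Their summed markers (7 of 8 with a row) were 13.6 to 28.4 FPKM in diabetic and 28.6 to 97.4 FPKM in control libraries. All 4 diabetic sums lay below the control range as well, but 0 of 4 tested eosinophil genes passed in limma, and Epx did not exceed 0.0680 FPKM. Dendritic cell sums were 125 to 229 FPKM in diabetic and 82.6 to 131 FPKM in control libraries. The 4 tested genes of this list did not go 1 way in limma. Ccr7 passed as higher, with means of 135 FPKM in diabetic and 32.2 FPKM in control libraries. Batf3 passed as lower, with means of 11.7 FPKM in diabetic and 26.0 FPKM in control libraries. Large peritoneal macrophage sums were 180 to 343 FPKM in diabetic and 119 to 173 FPKM in control libraries. Neutrophil and monocyte sums overlapped between the groups. The part of T cells or of any of these cell types in the Csf2ra difference was not tested.

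The interleukin 3 receptor alpha chain overlapped between groups. Il3ra (chromosome 14, 7059336 to 7068331) had 42.8, 29.6, 36.7 and 25.8 FPKM in diabetic 1 to 4, against 39.2, 46.0, 48.8, 45.8 and 33.9 FPKM in control 1 to 5. Diabetic 1 lay above the lowest control libraries, and 2 of the 4 diabetic libraries lay below all of the control group. The log2 fold change was -0.35 with an SE of 0.16, with a range of -0.47 to -0.23 when any 1 library was left out. The summed FPKM of the markers of mast cells and basophils, which respond to interleukin 3, was 110 to 375 in diabetic and 285 to 704 in control libraries. Of the diabetic sums 3 of 4 lay below the control range, but 0 of 6 tested genes of this list passed in limma. The part of mast cells and basophils in the Il3ra values was not tested.

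The row matched to the common beta chain, Csf2rb (identifier MGP_C57BL6NJ_G0022449, chromosome 15, 81604444 to 81638154), had 28.6, 26.3, 37.3 and 28.9 FPKM in diabetic 1 to 4, against 33.7, 37.7, 40.8, 27.5 and 39.7 FPKM in control 1 to 5. The groups overlapped, since control 4 lay below 3 of the diabetic libraries. Its log2 fold change was -0.24 with an SE of 0.14. The value is uncertain because of the copy Csf2rb2. The longest open reading frames of their GENCODE M21 transcripts are 2691 bases for Csf2rb and 2637 for Csf2rb2, agree at 95.2% of 2631 aligned bases, and share 26.0% of all windows of 50 bases, so the authors' counting could split or share reads. The first 90 coding bases show how close the copies are, with capitals at the 3 positions that differ.
Csf2rb: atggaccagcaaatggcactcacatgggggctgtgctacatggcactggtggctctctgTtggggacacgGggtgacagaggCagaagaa
Csf2rb2: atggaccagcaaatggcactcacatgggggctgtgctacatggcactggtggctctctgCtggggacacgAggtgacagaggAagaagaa
The gene length deposited for the Csf2rb row, 1932 bases, is shorter than that open reading frame, which bears on the FPKM level of this row in all libraries alike.

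M-CSF receptor transcripts were the most abundant of the 8. Csf1r (chromosome 18, 62617314 to 62645157) stood at 207, 217, 306 and 189 FPKM in diabetic 1 to 4, against 244, 356, 298, 248 and 277 FPKM in control 1 to 5. Diabetic 1, 2 and 4 lay below every control library, whereas diabetic 3 exceeded all of the control group but control 2. The means were 230 ± 52.0 FPKM in diabetic (SD, n = 4) and 285 ± 45.5 FPKM in control libraries (SD, n = 5). The log2 fold change of -0.32 (SE 0.16) became -0.46 without diabetic 3 and -0.23 without diabetic 4.

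**Figure D1:**
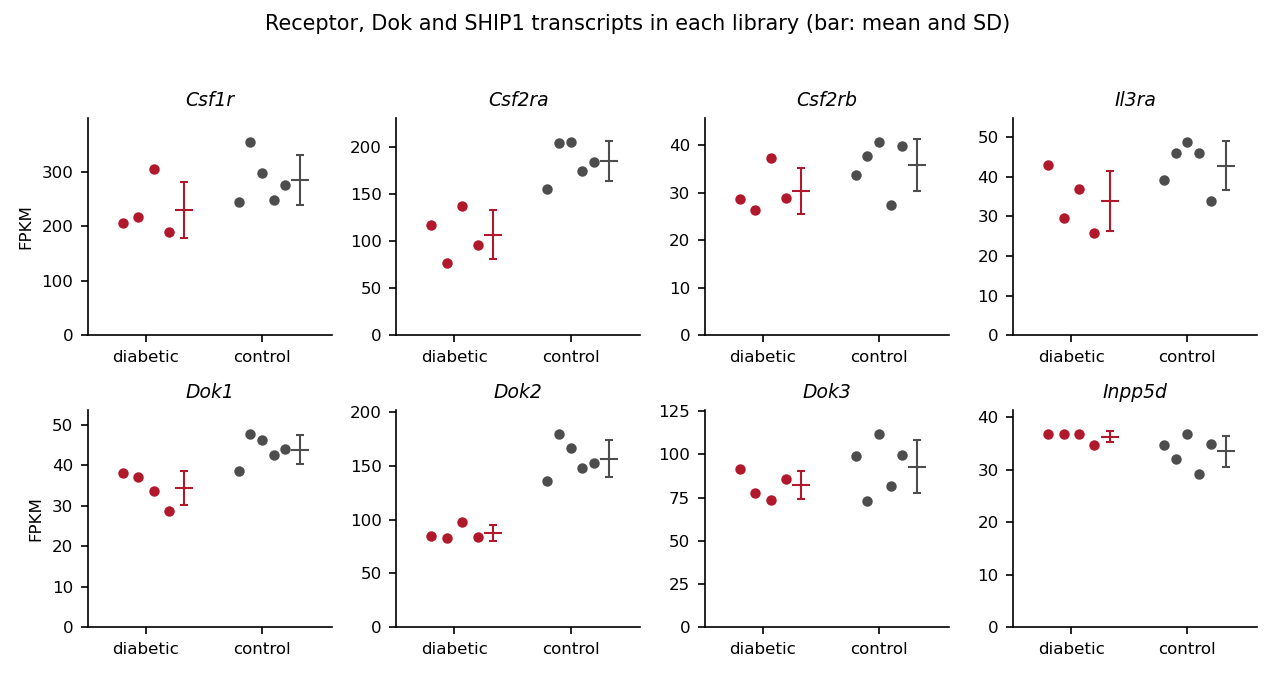
FPKM of the 8 measured transcripts in each library, diabetic on the left (4 points, in the order diabetic 1 to 4) and control on the right (5 points), each panel with its own axis from 0; bars give the mean and SD. The Csf2ra, Dok1 and Dok2 points of the diabetic libraries all lie below those of the control libraries, and the other panels overlap.

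Dok2, the adaptor found in myeloid and T cells, had the most separate groups of the 8 transcripts. It stood at 84.4, 82.8, 98.2 and 83.9 FPKM in diabetic 1 to 4, against 136, 180, 166, 148 and 152 FPKM in control 1 to 5 (chromosome 14, 68338402 to 68350742). The highest diabetic value was well under the lowest control value. The means were 87.3 ± 7.27 FPKM in diabetic (SD, n = 4) and 156 ± 17.1 FPKM in control libraries (SD, n = 5), a ratio of 0.559. The log2 fold change was -0.83 with an SE of 0.11, and it stayed between -0.89 and -0.78 when any 1 library was left out. T cells transcribe Dok2 too, and the T cell markers were higher in the same diabetic libraries in which Dok2 was lower. Their part in the Dok2 values was not tested.

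Dok1, the related adaptor that also binds RasGAP, differed less. It had 38.1, 37.1, 33.7 and 28.8 FPKM in diabetic 1 to 4, against 38.7, 47.9, 46.3, 42.5 and 44.2 FPKM in control 1 to 5 (chromosome 6, 86313089 to 86315626). The groups did not overlap, but diabetic 1 lay just under control 1. Its means were 34.4 ± 4.19 FPKM in diabetic (SD, n = 4) and 43.9 ± 3.55 FPKM in control libraries (SD, n = 5), with a log2 fold change of -0.35 and an SE of 0.11.

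Dok3, an adaptor of B cells and macrophages that T cells lack, did not separate the groups. It had 91.7, 77.7, 73.8 and 86.0 FPKM in diabetic 1 to 4, against 98.9, 72.9, 112, 81.8 and 99.4 FPKM in control 1 to 5 (chromosome 13, 56669848 to 56675107). Its lowest library was control 2. The log2 fold change was -0.16 with an SE of 0.14. B cell markers, summed over 12 genes, stood at 1575 to 3382 FPKM in diabetic and 1040 to 2200 FPKM in control libraries, with 3 of 11 tested genes passing as higher in limma, and their part in the Dok3 level was not tested.

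Inpp5d, which encodes SHIP1, the phosphatase that removes the 5-phosphate from the lipid product of phosphoinositide 3-kinase, was the only one of the 8 with a positive log2 fold change. It had 36.8, 36.8, 36.7 and 34.7 FPKM in diabetic 1 to 4, against 34.7, 32.1, 36.8, 29.1 and 34.8 FPKM in control 1 to 5 (chromosome 1, 92287740 to 92394361). The diabetic values fell inside the control range. The means were 36.3 ± 1.02 FPKM in diabetic (SD, n = 4) and 33.5 ± 2.98 FPKM in control libraries (SD, n = 5), with a log2 fold change of 0.11 and an SE of 0.092, and lymphocytes transcribe this gene too.

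As a group, 7 of the 8 measured transcripts had a negative log2 fold change and 1 a positive one, with a median of -0.33. Over all 11193 genes tested, 5851 had a negative log2 fold change and the median was -0.013. In the limma fit across all genes, with Benjamini-Hochberg adjustment, Csf2ra and Dok2 were past the threshold of 0.05 as lower in diabetic libraries and 0 members as higher, while 3 of 8 members reached an unadjusted p below 0.05, as did 22.4% of all genes tested. Of all genes tested, 4.76% were past the threshold, 2.08% as lower and 2.68% as higher. Groups did not overlap for Csf2ra, Dok1 and Dok2, all lower in diabetic libraries, where this held for 4.60% of all genes, and for 0 members in the other direction, where it held for 4.82%. Because the contrast chose the genes, nothing is read from these counts or from the fits that left out 1 library. Dok2 was past the threshold in all 9 fits that left out 1 library. Csf2ra was past it in 6 of 9, and not without control 3 or diabetic 4 (log2 fold change -0.77 in each case) or diabetic 2 (-0.66).

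**Figure D2:**
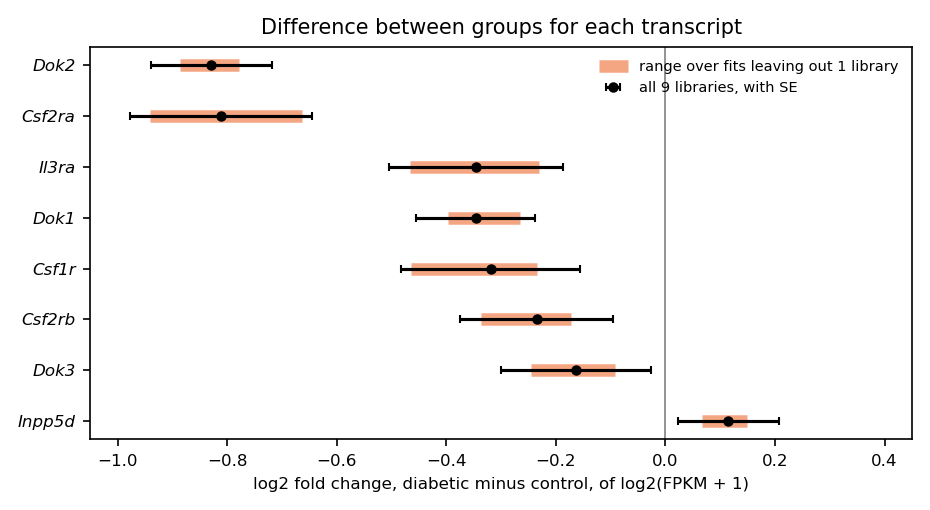
Log2 fold change (diabetic minus control, on the log2(FPKM + 1) scale) of the 8 measured transcripts with its SE; the shaded bar is the range over the 9 fits that each leave out 1 library. Dok2 (-0.83) and Csf2ra (-0.81) stand apart from the other 6, which lie between -0.35 and 0.11.

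The order of the transcript levels was described within each group on the per-length FPKM scale. Where the order differs between the groups, it follows from the differences by which the genes were chosen. In both groups Csf1r came first, above Csf2ra in every library, and Csf2ra had the second highest mean. In diabetic libraries Csf2ra exceeded Dok2 in 3 of 4 and Dok2 exceeded Dok3 in 2 of 4, with overlapping ranges. In control libraries Csf2ra exceeded Dok2 in 5 of 5, although their ranges overlapped, and Dok2 stood clear above Dok3. Inpp5d, Dok1, Il3ra and Csf2rb formed the lower end in both groups, with means of 30.3 to 36.3 FPKM in diabetic and 33.5 to 43.9 FPKM in control libraries and with overlapping ranges between all neighbours.

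To set the transcripts against another macrophage gene of the same library, each was divided by Csf1r, a comparison chosen after the data were seen. Csf2ra stood at 0.567, 0.351, 0.447 and 0.508 of Csf1r in diabetic 1 to 4, against 0.634, 0.574, 0.688, 0.700 and 0.665 in control 1 to 5. Dok2 stood at 0.409, 0.381, 0.321 and 0.444 of Csf1r in diabetic 1 to 4, against 0.556, 0.505, 0.558, 0.594 and 0.550 in control 1 to 5. For both, which were chosen from the same contrast, every diabetic ratio lay below every control ratio. The mean log2 ratio to Csf1r was lower in diabetic libraries by -0.50 for Csf2ra and -0.52 for Dok2, which is less than their differences of -0.81 and -0.83 without the division.

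Csf1r itself had a log2 fold change of -0.32, which raises every ratio to it in the diabetic group. Dok1, Il3ra and Csf2rb differed by -0.035, -0.036 and 0.078 in the mean log2 ratio, and Dok3 by 0.16, with 2 of 4 diabetic ratios above the control range. Dok1 averaged 0.154 ± 0.0323 of Csf1r in diabetic (SD, n = 4) and 0.156 ± 0.0133 in control libraries (SD, n = 5). Inpp5d averaged 0.163 ± 0.0290 of Csf1r in diabetic and 0.120 ± 0.0189 in control libraries (SD), with 3 of 4 diabetic ratios above the control range and diabetic 3 inside it. The other 8 macrophage markers that had a row include Mrc1, which was lower in diabetic libraries. Cd68 had the highest mean of them (1052 FPKM in diabetic and 1109 FPKM in control libraries) and so weighs most in their sum. Their summed FPKM was also used as the divisor. Csf2ra (-0.66) and Dok2 (-0.68) then had all 4 diabetic ratios below the control range, and the other 6 differed by -0.20 to 0.27. The share of all genes set apart by either division was not computed, so nothing is read from these ranges.

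**Figure D3:**
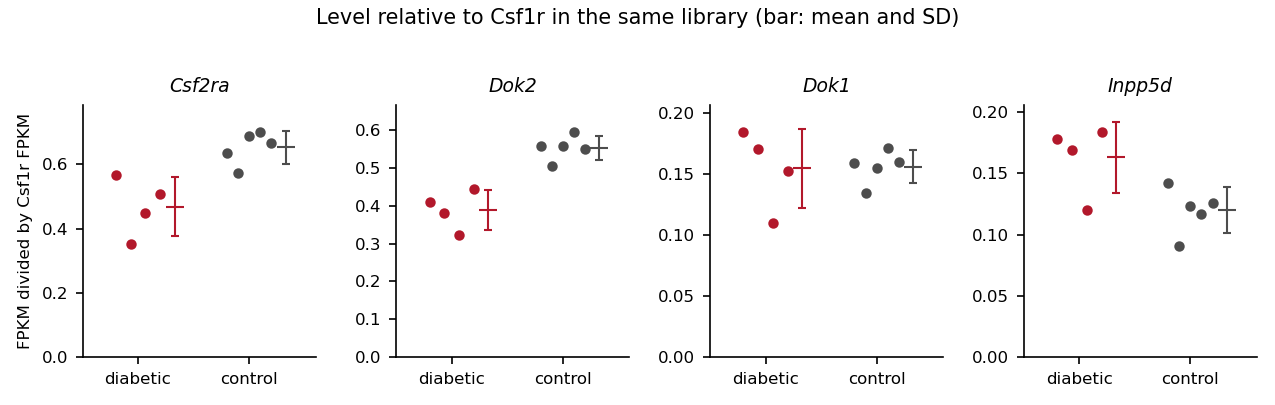
FPKM of Csf2ra, Dok2, Dok1 and Inpp5d divided by the Csf1r FPKM of the same library, diabetic on the left (4 points) and control on the right (5 points), each axis from 0, with the mean and SD as bars. Csf2ra and Dok2 ratios of the diabetic libraries lie below all control ratios, Dok1 ratios overlap, and 3 of 4 Inpp5d ratios lie above the control range.

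Variation within groups was looked at apart from the group difference, as deviations of log2(FPKM + 1) from the group mean over the 9 libraries. Transcripts of the same library share its depth scaling and its cell mixture. Of the 28 pairs among the 8 transcripts, 23 had a positive Pearson correlation of deviations, with a median of 0.32. Csf1r and Dok2 moved most closely together (0.91), and Csf2ra followed Dok2 (0.75), Csf2rb (0.69) and Csf1r (0.68). Dok3 went against Csf1r (-0.48) and Dok2 (-0.41), and with Inpp5d (0.66). Over all tested named genes, the 5 most like Csf1r were Tbc1d9b, Rac1, Scamp2, Dstyk and Tmem164 (0.95 to 0.98), and Dok2 ranked 40. For Csf2rb they were Slc16a13, Plekho2, Bace1, Krt80 and Msl3l2 (0.93 to 0.97), with Csf1r at rank 288. With 9 libraries and so many genes, such values are a description only.

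The pathway around these receptors was read from 8 lists of 120 genes in all, of which 115 had a row and 98 were tested. Of the 98, 3 passed as higher and 3 as lower in diabetic libraries, which is 6.12% beside 4.76% of all genes, and their median log2 fold change was -0.12. Ligands were scarce. Il3 and Il5 had 0 reads in every library, which allows up to 3 reads in each, and Csf2, the GM-CSF gene, had 5 reads over the diabetic and 1 over the control libraries. Csf1, which encodes M-CSF, was the only ligand tested. It had 3.30 ± 1.79 FPKM in diabetic (SD, n = 4) and 7.88 ± 6.58 FPKM in control libraries (SD, n = 5; log2 fold change -0.79, SE 0.55, limma adjusted p = 0.43), with control 5 the highest at 18.2 FPKM.

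Among 5 tested receptors of related families, Il2rg, the common gamma chain of the interleukin 2 receptor family, rose. It had 85.5, 101, 98.1 and 104 FPKM in diabetic 1 to 4, against 72.1, 73.4, 68.1, 55.3 and 68.7 FPKM in control 1 to 5 (log2 fold change 0.52, SE 0.11, limma adjusted p = 0.027). T cells express this chain strongly, and the T cell sums given above were higher in the same libraries. Csf3r, Kit, Flt3 and Il5ra did not pass, and these 4 are also markers of neutrophils, mast cells, dendritic cells and eosinophils. Il2rg did not pass without control 3, diabetic 2 or diabetic 4.

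Jak2, the kinase of the beta chain, had 13.3 ± 0.953 FPKM in diabetic and 11.8 ± 2.79 FPKM in control libraries (SD), and Stat5a had 6.10 ± 0.294 and 6.42 ± 0.510 FPKM. Neither passed, and both were named after their values were seen. Of 11 feedback inhibitors 1 passed. Cblb, a ubiquitin ligase that restrains receptor signals in lymphocytes, rose (11.6 ± 0.687 FPKM in diabetic, 8.66 ± 0.543 FPKM in control, SD; log2 fold change 0.39, SE 0.086, limma adjusted p = 0.031). T cells also transcribe Cblb. Their summed markers were 146 to 577 FPKM in diabetic and 47.3 to 80.0 FPKM in control libraries, and their part in the Cblb values was not tested. Cblb passed in 2 of 9 fits with 1 library left out each, and not without control 1, control 3, control 4, control 5, diabetic 1, diabetic 2 or diabetic 4.

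Among genes that act with the Dok adaptors and SHIP1, 1 passed. Of 12 tested Dok partners 10 had a negative log2 fold change (median -0.20), beside 5851 of all 11193 genes tested. Inppl1, which encodes the related phosphatase SHIP2, fell to 15.9 ± 3.67 FPKM in diabetic libraries (SD, n = 4), against 25.7 ± 1.79 FPKM in control libraries (SD, n = 5; log2 fold change -0.68, SE 0.14, limma adjusted p = 0.023). Its diabetic values of 12.5 to 19.8 FPKM did not reach the control values of 23.9 to 28.4 FPKM. It did not pass without control 3, diabetic 2 or diabetic 4.

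Of 24 phosphoinositide 3-kinase and Ras pathway genes, 18 had a negative log2 fold change (median -0.21), beside 5851 of all 11193 genes tested. Pik3r6 alone passed. This regulatory subunit of the gamma isoform of the kinase fell to 12.9, 12.7, 14.6 and 10.8 FPKM in diabetic 1 to 4, against 19.9, 22.3, 20.1, 20.8 and 19.3 FPKM in control 1 to 5 (log2 fold change -0.65, SE 0.10, limma adjusted p = 0.0088). The groups were apart, and the gene passed in all 9 fits that left out 1 library.

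Among 14 transcription factors of myeloid receptor genes, Egr2 alone passed. It fell to 3.49 ± 0.947 FPKM in diabetic libraries (SD, n = 4), against 7.21 ± 1.63 FPKM in control libraries (SD, n = 5; log2 fold change -0.87, SE 0.18, limma adjusted p = 0.024), and it did not pass without control 3, control 4, diabetic 2 or diabetic 4. Spi1, which encodes PU.1, had 161 ± 23.3 FPKM in diabetic and 186 ± 14.3 FPKM in control libraries (SD; log2 fold change -0.21, limma adjusted p = 0.32; named after its values were seen). Of 16 tested response genes of these cytokines 0 passed in limma, and 2 of 16 had an unadjusted p below 0.05, Ccl24 lower and Ccl22 higher, where 22.4% of all genes tested did. Their log2 fold changes were -1.20 and 0.49 with SEs of 0.46 and 0.19, and both had a limma adjusted p of 0.16.

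**Figure D4:**
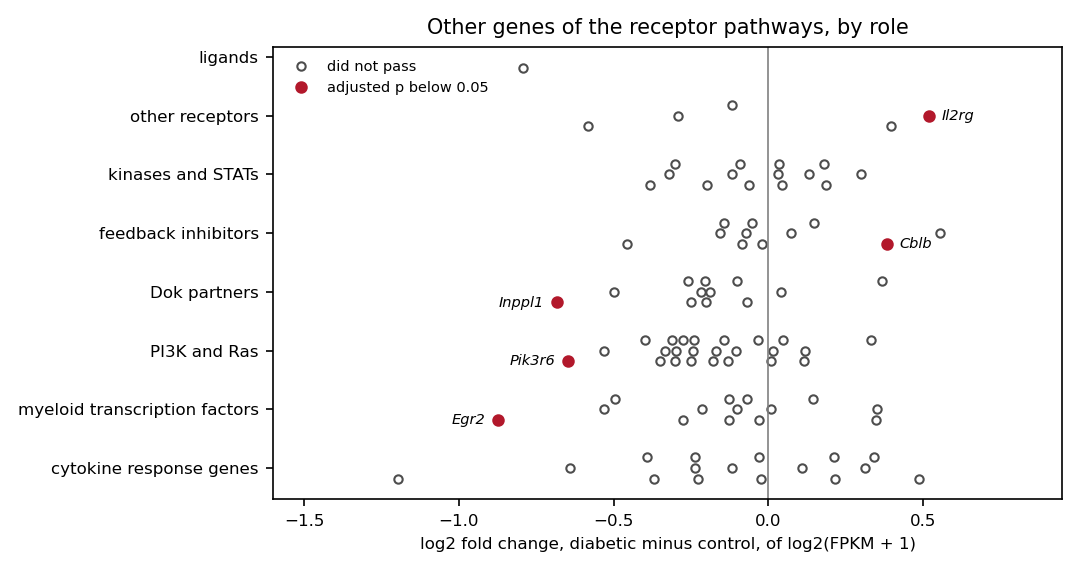
Log2 fold change (diabetic minus control, on the log2(FPKM + 1) scale) of tested pathway genes, 1 point each, in 8 lists by role; filled points passed at an adjusted p below 0.05 in limma. Il2rg and Cblb lie to the right of 0 and Inppl1, Pik3r6 and Egr2 to the left.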

How the data were processed

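Libraries of messenger RNA from peritoneal cells, 4 diabetic and 5 control, were made with a SMARTER kit according to the labels. The authors deposited FPKM, scaled to gene length and depth, for 41096 genes, per the file headers. Titles tied each of the 9 columns to its library. Genome builds named by the submitters' processing notes are GRCm38 and mm10, while the gene identifiers are those of a C57BL/6NJ set. For the aligner, the counter and the use of strand, the entry is "not given in the sources used here". Without strand, reads of Csf1r and Dok2 cannot be told from those of the overlapping opposite-strand genes Hmgxb3 and Xpo7 (at most 4.70 and 4.03 FPKM). Each FPKM value was a whole multiple of 1 read (100% of values within 0.05), and the reads so recovered serve as depth only.

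The fit used limma 3.58.1 (R 4.3.3) on log2(FPKM + 1), with trended and robust moderation and group as the only factor. It took 11193 genes that reached 1 FPKM in 4 or more libraries, two-sided, with Benjamini-Hochberg adjustment over all of them and a threshold of 0.05. Fold changes on this scale understate low genes. The fit was checked on simulated data. The members and lists were chosen with earlier results of these data known. Named genes are all members, Apoe, up to 4 passing genes of each pathway list in order of p (where none passed, up to 2 with the smallest p), and the 5 genes most like Csf1r and Csf2rb within groups, predicted genes and pseudogenes left out. Of the pathway genes counted, 1 is not reported here by name or in the figure. Marker lists of 12 cell types were summed in FPKM. Promoters came from RefSeq (GRCm38.p6), and coding sequences from GENCODE M21 transcripts were aligned with Biopython 1.88. Alternatives were a pseudocount of 0.1, no filter, a filter at 5 FPKM, quantile normalization, array weights, a replicate block and leaving out each library.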

Additional observations from a re-analysis of the deposited data

Results flagged for a closer look

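Within-group gaps were looked at for the 8 measured transcripts and 9 pathway genes taken by the naming rule, 34 groups of 4 or 5 libraries in all, and 3 held a library far from the others of its group by Dixon's criterion. Chance alone marks about 1 group in 20. Dok2 in diabetic 3, at 98.2 FPKM, was the highest of its group, with the other diabetic libraries at 82.8 to 84.4 FPKM, and it still lay below all control libraries. Inpp5d in diabetic 4, at 34.7 FPKM, was the lowest of its group, with the other diabetic libraries at 36.7 to 36.8 FPKM. Ccl22 in diabetic 1, at 14.4 FPKM, was the highest of its group, with the other diabetic libraries at 9.60 to 10.4 FPKM.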

How the results depend on the processing

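The sign of the log2 fold change of all 8 measured transcripts and all 9 pathway genes taken by the naming rule was the same under all 15 alternatives in pseudocount, filter, normalization, weights, block and left-out library. Dok2 and Csf2ra were chosen from this same contrast, so their counts lend their differences no support. Dok2 was past the threshold in 15 of 15 alternatives and Csf2ra in 10 of 15. The number of genes past it, 533 in all, was 183 with no filter on low values (22471 genes tested), 1304 with array weights and 115 to 1126 when 1 library was left out. Of the measured transcripts 2 were past it, and 1 with no filter and 1 to 2 when 1 library was left out. Of the pathway genes 6 passed, 1 with no filter, 16 with array weights and 1 to 15 when 1 library was left out. Diabetic and control libraries share replicate numbers, but the correlations of their deviations (0.023, 0.16, -0.26 and -0.18 for numbers 1 to 4) do not pair them, and 1 of 4 diabetic libraries correlated best with its own number. With the replicate block, which drops control 5, 73 genes, 1 measured transcript (Dok2) and 0 pathway genes passed (21 at an unadjusted limma p below 0.05). Apart from the number of genes tested and of libraries, the cause was not tested. Relative to Csf1r, chosen after seeing the data, the sign of Csf2rb and Dok3 turned (0.078 and 0.16). Count models on the recovered reads were not run, because the deposited unit is FPKM. Depth limits the low ligands, with 0 to 5 reads per group for Il3, Il5 and Csf2.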
